A study of Mus musculus with 50 samples.

Results

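Variants of mouse chromosome 2 that were called in at least 2 plasma cell tumours are described here. They were chosen by chromosome, by a single alternate allele and by the number of tumours with a call in the annotated exome variant table, which gave 1886 variants of the 12919 shared variants on all chromosomes. The tumours were malignant plasma cells from mesenteric lymph nodes of separate mice, and all of them carried the genotype labelled IL6Myc, so the groups below share it and differ only in their title numbers. The study labels 45 such tumours, of which 44 have a column in the table, and 5 wild-type Balb/c kidneys. The labelled tumour without a column was not used here, and neither was any kidney. An exome holds no expression, so the label of the cells could not be checked against marker genes. Tumours are called by the number in their title, and they fall into 4 with titles 1199 to 1293, 18 with titles 1501 to 1592 and 22 with titles 1601 to 1628. The labels do not say what the number stands for, and they give neither the strain of the tumour-bearing mice nor the promoters of the transgenes. Each filled cell of the table is the percent of reads with the alternate allele, called the read share below, and an empty cell is a missing call, which may be a lack of the variant or a lack of reads.

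Plasma cells are the antibody-secreting end stage of B cells. Variants that lie on one copy of a chromosome pass together from parent to offspring until recombination parts them, so related animals of mixed descent share blocks of neighbouring variants with common edges. An inherited variant on one copy of a chromosome is read in about as many reads as the other allele, whereas a variant acquired by part of the cells of a tumour has a lower share. Cd40, a receptor that gives B cells help from T cells, and Samhd1, an enzyme that degrades the nucleotides used to build DNA, both lie on chromosome 2. Whether the variants described here were inherited or acquired was not tested.

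Sequence around a member was at hand where it lay near a start site in the RefSeq promoter table (build GRCm38.p6). One upstream variant is shown for each of 4 segments with different carrier tumours, so that the base read differently in each set of tumours can be seen. Each window holds 25 bases on the strand of the gene, and the capital is the reference base of the variant at position 13 from the 5′ end of the window. The alternate base is given as a substitution counted from that end.
Hao1, minus strand, chr2:134554353-134554377, C13T, called in 9 tumours: catgaaaaccctCcagagtatctga
Wfdc10, plus strand, chr2:164656012-164656036, G13A, called in 21 tumours: ctgatttggccaGcagaggcagtag
Trp53rkb, plus strand, chr2:166793732-166793756, G13A, called in 15 tumours: gcggtgttcatgGcggaagaggccg
Prpf6, plus strand, chr2:181601269-181601293, A13G, called in 15 tumours: ttgcaaacccacAtctttgacttcc
These variants lay 13 bases upstream of the start site of Hao1, 22 bases upstream of Wfdc10, 23 bases upstream of Trp53rkb and 38 bases upstream of Prpf6. Hao1 encodes an enzyme of liver glyoxylate metabolism and Prpf6 a spliceosome protein. Their median read shares over the carriers were 47.62% for Hao1, 50% for Wfdc10, 44% for Trp53rkb and 48.28% for Prpf6.

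One tumour stood apart and is set out before the results. Tumour 1614 had 32 of the 1886 calls, 15 of them inside the segments described below, at read shares of 2.91 to 10.53% with a median of 4.35%, while the other carriers of the same 15 variants had medians of 43.875 to 54.365%. Of its 24 single-base calls on chromosome 2, 17 lay below a read share of 15%, a share of 70.8%, against 4.61% of its shared single-base calls on other chromosomes. In the other 43 tumours 1.56 to 6.26% of the shared single-base calls on other chromosomes lay below 15%. On chromosome 2 the next highest shares of calls below 15% were 28.6% in tumour 1613 (4 of 14), 26.7% in 1588 (4 of 15) and 25% in 1564 (3 of 12), all 3 carriers of no segment. Tumour 1614 belongs to the carriers of no segment, and leaving it out also gave 12 segments with 1221 members. Values that rest on it are given with and without it. The number of reads behind a call is unknown, so no interval is given for a single read share.

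The members were 1612 single-base variants and 274 insertions or deletions, and they ran from position 3050232 to position 181995339 (mm10). Introns held 1175 of them, 258 were synonymous, 132 were intergenic, 111 were missense and 94 lay in 3′ untranslated regions. Few were common to nearly all tumours: 8 members were called in more than 21 tumours, 860 in 14 to 21, 428 in 6 to 13 and 590 in 2 to 5. At the threshold of the choice, 235 members were called in exactly 2 tumours, and 1906 further chromosome 2 variants, called in 1 tumour, were left out. The calls were unevenly placed, with 86 members (4.56%) before position 110208680 and 1074 (56.9%) within one stretch of 18.8 Mb.

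Members were grouped into segments when neighbours had like sets of carriers, which is a description of the calls and no test. A member joined a segment if its carriers shared a Jaccard index of at least 0.6 with the tumours called at 50% or more of the segment's variants, its consensus carriers, within 5 Mb, and segments of at least 10 variants were kept. The 12 segments held 1221 members (64.7%), and 25 of the 44 tumours were consensus carriers of at least 1 segment. The other 19 tumours carried none, among them all 8 with titles above 1616. The plot of calls by order of position shows the carriers as long dark rows that begin and end at shared edges.

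**Figure D1:**
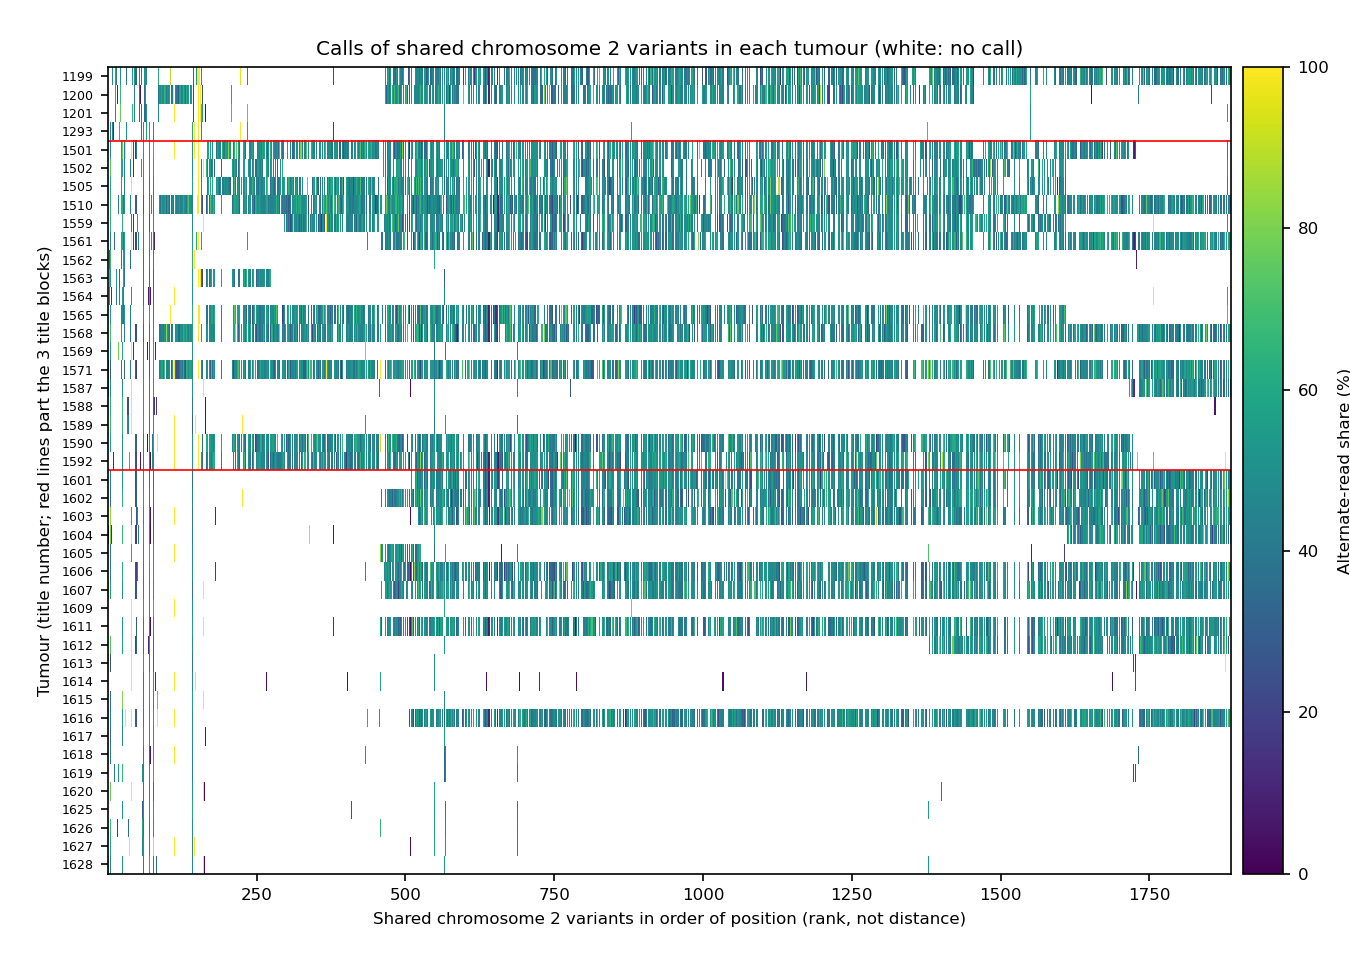
Read share (colour, in percent; white is no call) of the 1886 members in order of position (x axis, rank) in the 44 tumours in order of title number (y axis). Rows of 20 tumours are filled through most of the stretch that holds 1074 members, and the 8 tumours titled above 1616 have few calls.

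The segment nearest the centromere, chr2:110208680-114195979, had 51 variants carried by tumours 1200, 1510, 1568 and 1571. Tumours 1510 and 1568 were called at 100% of the variants, and tumours 1200 and 1571 at 94.1%. Its median read shares were 48.51% in tumour 1200, 50% in 1510, 49.18% in 1568 and 47.06% in 1571, and none of the other tumours had a call at these 51 variants. Members in no segment also lay in this stretch, such as an insertion at 113295964 called in 14 tumours. The segment changed the protein in 3 genes: Aqr, a helicase of the spliceosome, at p.Gln1438Arg and p.Pro346Ser, and the olfactory receptors Olfr1290 at p.Val225Ile and Olfr1299 at p.Arg226His. Receptors of that family resemble each other, so their calls are uncertain. The last gene of the segment was Zfp770, a zinc finger gene.

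Segments 2 to 6, between positions 121485614 and 136545740, had consensus carriers only among tumours titled 1501 to 1592. Segment 2, chr2:121485614-127978561, had 61 variants in 10 tumours and ended in Acoxl. Segments 3 and 4 lay inside it and divided its carriers without overlap. Segment 3, chr2:123916360-127248757, had 17 variants in 8 tumours (1502, 1510, 1563, 1565, 1568, 1571, 1590 and 1592) and ended in Tmem127. Segment 4, chr2:124654998-127234941, from Sema6d to Snrnp200, had 26 variants in tumours 1501 and 1505, which were called at 100% of them with median read shares of 52.25% and 46.15%. The consensus carriers of segments 3 and 4 together were those of segment 2.

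The protein changes of this stretch followed the same division. The 8 tumours of segment 3 had p.Trp7Cys and p.Pro550Ala in Sema6d, a guidance cue for growing axons, p.Ala74Pro in Sppl2a, an intramembrane protease that trims the invariant chain in B cells, and p.Pro556Ser in Ncaph, a subunit of condensin. The tumours 1501 and 1505 had p.Pro11His in Slc12a1, a salt transporter of the kidney, at 44.83 to 53.7% of reads. The 10 tumours of segment 2 had p.Arg262Gln in Astl, an egg protease, with a median share of 50.065%, and p.His227Arg in Adra2b, an adrenergic receptor, with a median share of 51.39%. A further Astl change, p.Asn320Asp, was called in 9 of them and not in tumour 1505.

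Segment 6, chr2:127747821-136545740, ending in Ankef1, had 115 variants in 9 tumours (1501, 1505, 1510, 1559, 1565, 1568, 1571, 1590 and 1592), and it changed the protein in 7 genes. Mertk, a receptor kinase for the uptake of dying cells, had p.Ile516Val at a median share of 51.85% (lowest 30.23%, highest 58.7%, 9 tumours). Sirpa, an inhibitory receptor of myeloid cells, had p.Pro194His in 9 tumours and p.Asn224His in 8. Hao1 had p.Val15Ala in the same 9 tumours as its upstream variant, with shares of 45.38 to 55.65%. Cpxm1, Pced1a and Vps16 had 1 missense variant each in these 9 tumours, and Stk35 had an in-frame insertion in 8. Segment 5, chr2:126003719-134523287, from Fam227b to Hao1, was sparse, with 10 variants in tumours 1505, 1568, 1571 and 1590 at median shares of 53.775%, 57.205%, 53.85% and 58.33%, and it held no protein change. These 4 tumours were all carriers of segment 6. Other tumours had part of the 10 variants, up to 40% in tumour 1565 and 30% in 1510. Segment 5 therefore depends on the grouping rule and is not shown to be a separate block.

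The largest was segment 8, chr2:148698801-167538945, from Napb to Snai1, with 586 variants over 18.8 Mb and 20 consensus carriers: 7 of the 22 titled 1601 to 1628, 11 of the 18 titled 1501 to 1592 and 2 of the 4 titled 1199 to 1293. Each of the 20 was called at 86.0 to 96.8% of the variants, and 293 of the 586 were called in all 20. The highest share called in any other tumour was 12.97%, in tumour 1612, whose calls began at position 163825291 in Wisp2. The per-tumour median read share averaged 48.3% ± 0.653 (SD, n = 20 tumours), and the lowest and highest tumour medians were 47.295% in tumour 1200 and 50% in tumour 1568. One exact set of these 20 tumours was shared by 252 members, the most of the 872 distinct carrier sets, 684 of which belonged to 1 member each. These 252 members lay between positions 148441308 and 158846999. Between 163825291 and 165687677, 43 members were called in the 20 and in tumour 1612. Between 166074848 and 167538945, 17 members had tumour 1612 in place of tumour 1200. The carriers thus changed along segment 8, and its span depends on the grouping rule.

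Many members within this stretch were not in a segment, and most of those had a part of the same carriers. Of the 378 such members, 347 (91.8%) had all their carriers among the 20, with a median of 4 carriers. The share of the 20 that was called varied with the place of the variant in its gene: the mean was 77.9% for coding members, 59.3% for 600 intronic members, 56.7% for 36 members of 3′ untranslated regions and 50.8% for 37 intergenic members. The capture kit targets exons. A few members went the other way. Tspyl3 p.Ala23Thr was called in 8 tumours (1569, 1589, 1605, 1618, 1619, 1625, 1626 and 1627) and Eif2s2 p.Asp9Asn, in a subunit of a translation initiation factor, in the same 8 and in tumour 1587, and none of these was among the 20.

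Segment 7, chr2:142576884-157982221, overlapped it with 71 variants in 19 tumours, and its last variant lay in Tti1. These edges depend on the grouping rule, so the span does not show a separate block over its full length. The first variant, at 142576884, was followed in the segment by one at 145554653. The Samhd1 variant at 157122107 fell in segment 7, although its 15 carriers were all carriers of segment 8. Its neighbour at 157122098, with 17 carriers, fell in segment 8. Segment 7 differed from segment 8 by 1605, which was in segment 7 alone, and by 1601 and 1603. Tumours 1601 and 1603 were called at 43.7% and 30.99% of the variants of segment 7. Tumour 1616, called at 53.5%, was a carrier of segment 7 only just by the limit of 50%. Its carriers were 6 of the tumours titled 1601 to 1628, 11 of those titled 1501 to 1592 and 2 of those titled 1199 to 1293.

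Between positions 165787350 and 167481590 the carriers of segment 8 parted into sets with no tumour in common. Segment 9, chr2:165787350-167481590, from Zmynd8 to Spata2, had 47 variants in 15 tumours, 8 titled 1601 to 1628 and 7 titled 1501 to 1592. Segment 10, chr2:166051675-167443599, from Ncoa3 to Slc9a8, had 46 variants in tumours 1199, 1501, 1510, 1561 and 1571. The median read shares of segment 10 were 49.63%, 47.37%, 50%, 46.67% and 52.1% in these tumours in that order. Tumour 1200 was in neither set, and tumour 1612 joined the 15. The 15 tumours of segment 9 had p.Ser594Asn in Ncoa3, a coactivator of nuclear receptors, at a median share of 50.77%, p.Gly1868Ser in Znfx1, a helicase that acts in antiviral defence, at 44.64%, and a missense variant in Zmynd8, a reader of histone marks, at 51.28%. The 5 tumours of segment 10 had p.Gly29Ser in Ptgis, the prostacyclin synthase, at 42.86 to 51.85%. Prex1 p.Ser946Pro, in an activator of the GTPase Rac, was called in all 20 tumours of the joined sets.

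The end of the chromosome held 2 dense segments parted by a stretch with 9 members. Segment 11, chr2:172351485-174463991, from Fam210b to Atp5e, had 76 variants in 17 tumours, 9 titled 1601 to 1628, 7 titled 1501 to 1592 and 1 titled 1199. Its protein changes lay in Cass4, Ctcfl, Fam209, Fam210b and Zbp1. Zbp1, a sensor of Z-form nucleic acids, had p.Thr280Ser in 17 tumours at a median share of 46.15% (lowest 30.56%, highest 60.47%), and Ctcfl, a testis relative of the insulator protein Ctcf, had p.Ile629Met in 15. Segment 12, chr2:180464752-181995339, from Slco4a1 to Gm14496, had 115 variants in 15 tumours, 9 titled 1601 to 1628, 5 titled 1501 to 1592 and 1 titled 1199. It changed the protein in 11 genes over 1.53 Mb, among them Chrna4, a subunit of a nicotinic receptor (p.Thr529Ala, median 48%), the tyrosine kinase Srms (p.Val394Ile and p.Val234Ala, 48.94% and 47.06%) and Helz2 (p.Glu1247Gly, 48.89%). Tumour 1587, a carrier of no other segment, was among the 15.

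**Figure D2:**
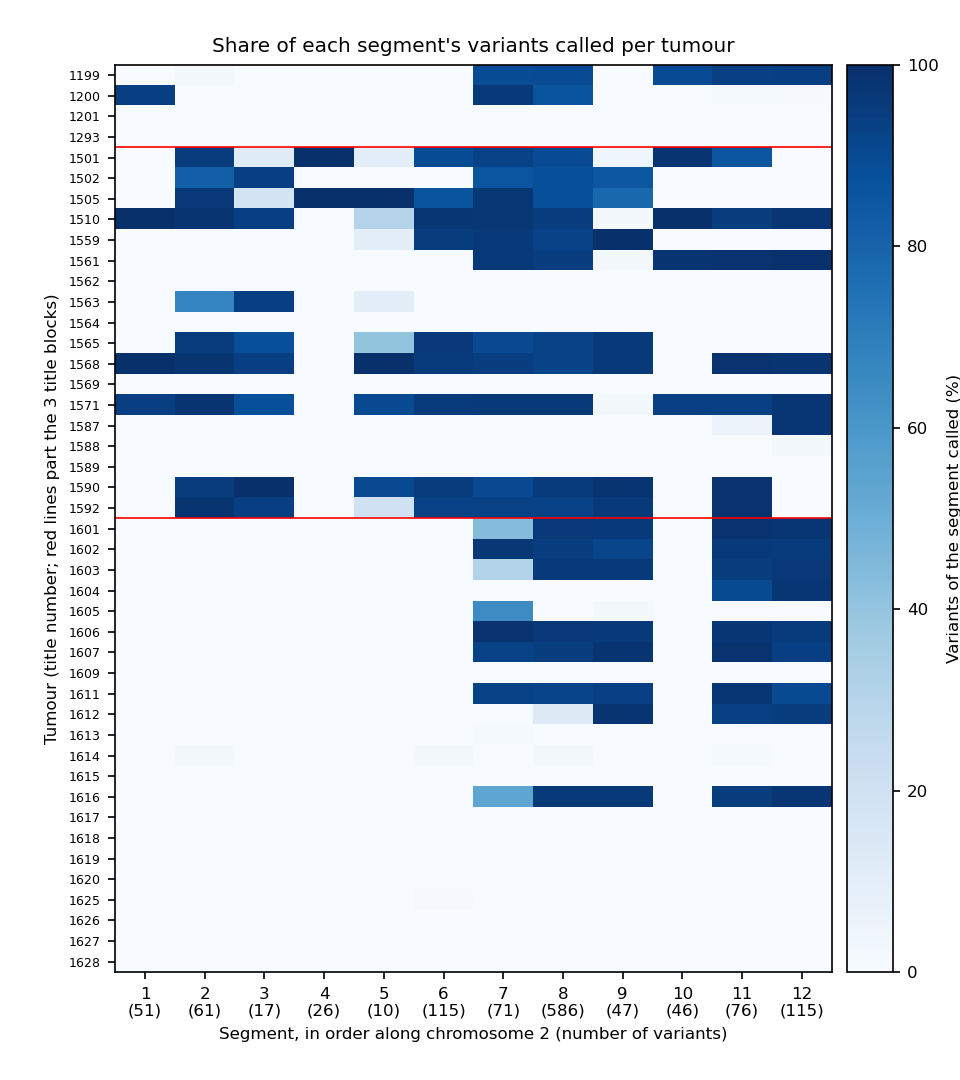
Percent of the variants of each of the 12 segments (x axis, number of variants in brackets) called in each of the 44 tumours (y axis, title number). Segments 3 and 4, and segments 9 and 10, fill different tumours at overlapping positions, and no tumour titled 1601 to 1628 is a consensus carrier of segments 1 to 6.

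Runs of calls were read in each tumour on a fixed grid of windows of 1 Mb. Windows needed at least 5 members called in 4 or more tumours. Those with fewer were passed over, so a run bridges stretches with few members. A run ended at a window where the tumour was called at less than 50% of these members. Its edges were the first and last called members of its windows. Runs that begin or end in the same window therefore tend to share an edge, so a shared edge is no result in itself. The longest runs spanned 71.8 Mb over 33 such windows in tumours 1510 and 1571, from position 110208680 to position 181995339 in tumour 1510. In tumours 1602, 1606 and 1607 runs were read from 145554653 to 165960225 and again from 167017981 to 181995339. In tumours 1601, 1603 and 1616 the left edge was 148043739, and the first run also stopped at 165960225. This break comes from the window rule and is not an end of the shared calls. Segment 9 spans the break, and tumours 1601, 1602, 1603, 1606, 1607 and 1616 were called at 91.5 to 97.9% of its variants. Tumours 1502, 1559 and 1565 ended at 167538945 and tumours 1590 and 1592 at 173590720, whereas tumours 1199 and 1561 reached 181995339. Short blocks stood alone in tumour 1201 (121481068 to 121519452, 4 calls), tumour 1563 (121481068 to 127366214), tumour 1605 (145554653 to 146970053), tumour 1604 (172351409 to 181995339) and tumour 1587 (180464752 to 181995339). Each of these short blocks had 1 or both edges in common with a longer block, which the grid of windows favours.

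Protein-altering members numbered 121 (6.42%), against 7.05% of the shared variants on other chromosomes, and lay in 95 genes. Of the genes, 54 had such a member in 14 or more tumours, 21 in 6 to 13 and 20 in 2 to 5, and 18 genes had more than 1. The ratio of missense to synonymous members was 0.430 on chromosome 2 (111 to 258), against 0.572 for the shared variants of other chromosomes, and it was 0.389 inside the segments (88 to 226). These ratios are given without a test, since neighbouring members share their carriers.

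The genes changed in the most tumours were, apart from Lnp, those of segments 7 and 8. Tti1, which holds the large kinases of the DNA damage response in shape, had 8 missense members, 7 in 20 tumours and 1 (p.His32Asn) in 19, with median shares of 47.815 to 54.775%. Rbl1, a relative of the retinoblastoma protein that restrains the cell cycle, had p.Arg715Gln in 20 tumours (50%) and p.Leu413Arg and p.Glu381Gln in 17 (48.05% and 50%). Foxa2, a transcription factor of endoderm, had p.Ser272Gly in 21 tumours, at a median of 52.17% with a lowest value of 34.21% and a highest of 70.37%. Ctnnbl1, a splicing factor partner known to bind the antibody-mutating deaminase of B cells, had p.Ala53Asp in 20 tumours at 28.57 to 63.41%. Gdf5, a growth factor of joints, had p.Leu223Met in 20 tumours, and Ncoa6, a coactivator of nuclear receptors, p.Thr1857Ser in 20. Wisp2, a secreted matrix protein, Kcnk15, a potassium channel, Svs6, a seminal vesicle protein, and Cd40 had 21 carriers, the 20 of segment 8 and tumour 1612.

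Arhgap40, a GTPase-activating protein, and Bpifb9a also counted 21 carriers, but their added tumour was 1614, at 10.53% of reads for Arhgap40 p.Arg34Lys and 4.17% for Bpifb9a p.Glu257Ter. Without tumour 1614 both had 20. The remaining genes of the highest rank, each with a changed protein in 20 tumours, were Plk1s1, Defb25, Rem1, Bpifb2, Necab3, Ggt7, Dlgap4, 9830001H06Rik, D630003M21Rik, Fam83d and Dhx35, with Prex1 named above. Plk1s1 encodes a centrosome protein, Defb25 a defensin, Rem1 a small GTPase and Dhx35 an RNA helicase. D630003M21Rik, Fam83d and 9830001H06Rik each had more than 1 such member.

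Cd40 had 2 members, both called in the same 21 tumours: 8 of the 22 titled 1601 to 1628, 11 of the 18 titled 1501 to 1592 and 2 of the 4 titled 1199 to 1293. The missense variant at position 165069691 (A to G) had a lowest read share of 35.53%, a median of 47.95% and a highest of 53.52%, and the intronic variant at 165062975 had 28.13%, 50.98% and 66.67%. The table names no amino acid for the missense variant and places it on a noncoding transcript. All 20 carriers of segment 8 had both variants.

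Samhd1 had 35 members, of which 13 were called in 20 tumours. Its protein change, p.Glu260Asp at position 157120494, was called in 15 tumours, 7 titled 1601 to 1628, 7 titled 1501 to 1592 and 1 titled 1199, at a lowest share of 40.48%, a median of 51.61% and a highest of 63.64%. All 15 were among the 20 carriers of segment 8, and those without the call were 1200, 1502, 1510, 1565 and 1571. The neighbouring Samhd1 members at 157120212, in an intron, and at 157121889, a synonymous change, were called in all 20, at medians of 50% and 47.735%. Whether the 5 tumours lacked the change or the reads was not tested. In Rbl1, the next gene named here, the 17 carriers of p.Leu413Arg left out 3 of these 5 tumours, 1200, 1502 and 1510.

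Truncating and essential splice members were 4. The stop in Bpifb9a, a member of the Bpi fold family expressed in secretory epithelia, was called at 38.94 to 56.45% in the 20 carriers of segment 8. Its nearby missense variant p.Gly71Ala had a lower median, 28.35% in 18 tumours, and the paralogue Bpifb9b had p.Ala71Gly at 23.76% in 5 tumours. The opposite changes at one residue number in like genes make both calls uncertain. A frameshift in Golga2, a Golgi matrix protein, had 65% of reads in tumour 1293, 33.33% in 1563 and 41.18% in 1564. A frameshift in Atp5c1, a subunit of the ATP synthase, had 11.32% in tumour 1604 and 14.58% in 1564, and a deletion over a splice donor of Ppig, a cyclophilin, had 10.71% in 1601, 17.33% in 1588 and 13.51% in 1200. These last 3 lay outside all segments.

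Gene lists drawn up for the chromosome, with earlier results of these data known, held members in part. Over all 1782 protein-coding genes of chromosome 2 in RefSeq, 323 (18.1%) had any member and 89 (4.99%) a protein-altering one. Of 26 B cell and lymphoid genes 5 had a member and 2 a protein change, Cd40 and Sirpa. Il1a, Cd93 and Bcl2l1 had other members, and Rag1, Rag2 and B2m were among those with none. Of 5 genes of nucleic acid sensing and nucleotide pools 2 were changed, Samhd1 and Zbp1. Of 14 genes of replication, repair and mitosis 4 had members (Pcna, Bub1, Aurka and Cdk5rap1), and none of these changed a protein. Of 11 kinases 3 had members and 1 a protein change, Mertk. Of 13 genes of chromatin and transcription 6 had members and 2 a protein change, Ncoa3 and Ncoa6. Of 6 very long or adhesion genes 5 had members and 2 a protein change, Ttn and Lrp1b, and of 397 genes of families with uncertain mapping 23 had members and 8 a protein change.

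Outside the segments a pair of mirrored carrier sets stood out. In tumours 1199, 1200 and 1201, and no others, 11 members were called, spread from position 29065053 to position 165754452. Of these, Ttf1 p.Arg143Gln, in a termination factor of ribosomal RNA transcription, had 61.29%, 60.71% and 47.06% of reads in that order of tumours. Lrp1b p.Cys1157Tyr, in a large lipoprotein receptor relative, had 48.65%, 53.7% and 34.62%, and Ttn p.Pro12236Ser, in the giant muscle protein titin, 51.35%, 50% and 37.31%. In the other 41 tumours, and none of these 3, 5 members were called: intronic variants of Prrc2b and Ambra1, Lnp p.Arg311Trp, a variant upstream of Olfr1099 and a variant in the 3′ untranslated region of Meis2. Lnp, which shapes junctions of the endoplasmic reticulum, had a lowest share of 30.77%, a median of 49.23% and a highest of 58.21%. These 5 lay between positions 32182403 and 115864177.

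Some other protein changes outside the segments had carriers from 1 title block, while others, such as Wdr76 p.Arg95Leu and Bpi p.Asn475Thr, had carriers from more than 1. Rapgef4 p.Lys306Asn, in an exchange factor that answers to cyclic AMP, was called in tumours 1619, 1625, 1626 and 1627 at shares of 29.73 to 60.47%, and an in-frame deletion of Phgr1 in 2 tumours of that block. Olfr1036 p.Thr5Ile and Etl4 p.Val1398Met were called only in tumours titled 1199 to 1293. Psmd14 p.Gln269His, in a proteasome subunit that removes ubiquitin, was called in 6 tumours titled 1501 to 1592. An intergenic variant at position 68554840, at a median share of 27.27%, had exactly the 17 carriers of segment 11, a set shared by 47 members in all, although segments 1 to 10 lie between the variant and that segment.

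Read shares of the members lay near an even split of the alleles. The median over carriers was 30 to 70% for 1768 members, below 30% for 73 and above 70% for 45, and of the 1221 members in segments 1213 were in the middle range. Insertions and deletions made up 68.9% of those above 70%, 21.9% of those below 30% and 12.8% of the rest. Olfr1201 p.Leu34Met had a median of 4.24% over 9 tumours. In the 28 tumours with at least 20 member single-base calls, the median share on chromosome 2 averaged 46.9% ± 8.18, against 48.1% ± 1.79 on other chromosomes in the same tumours (SD, n = 28). The mean difference was -1.24 percentage points, with 19 of 28 tumours above 0, and a two-sided sign-flip permutation test gave p = 0.991, or 0.991 adjusted over the 4 permutation tests of this report. Without tumour 1614 the averages were 48.4% ± 1.36 on chromosome 2 and 47.9% ± 1.13 elsewhere (n = 27), the difference was 0.554 points with p = 0.0169, and the adjusted p was 0.0678. Between title blocks, the per-tumour median on chromosome 2 averaged 44.6% ± 12.9 in tumours titled 1601 to 1628 (n = 11), against 48.6% ± 0.542 in tumours titled 1501 to 1592 (n = 13). The difference of -4.00 points had p = 0.151 in a permutation test, or 0.302 adjusted, and without tumour 1614 it was -0.116 points with p = 0.660. With the mean in place of the median of each tumour the difference passed the threshold, at -3.52 points (permutation test, adjusted p = 0.00588), and at -0.679 points (adjusted p = 0.0300) without tumour 1614.

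**Figure D3:**
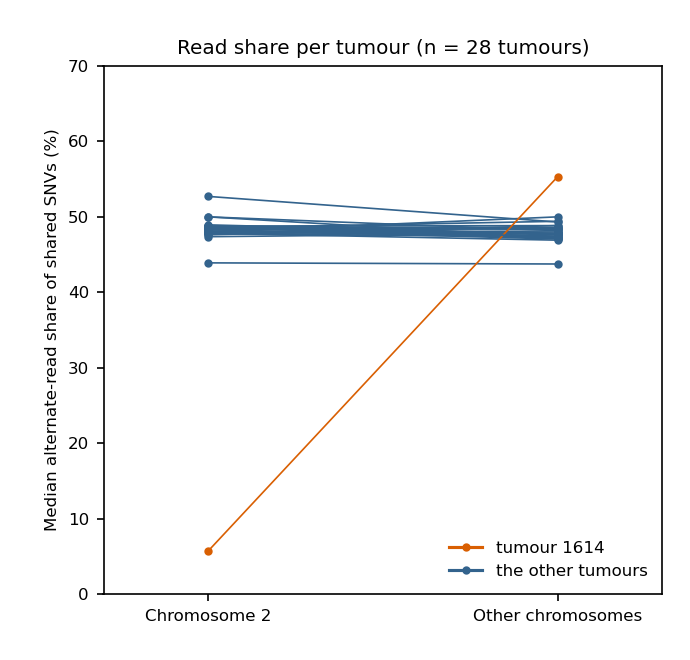
Median read share (y axis, percent) of shared single-base variants on chromosome 2 (left) and on the other chromosomes (right), joined for each of 28 tumours. Tumour 1614 (orange) has 5.715% on chromosome 2, and the other 27 average 48.4%.

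No difference in mean calls per tumour between title blocks passed the threshold once adjusted, which does not show that the blocks were alike. Tumours titled 1601 to 1628 had 352 ± 449 calls (SD, n = 22, lowest 12, median 25.5, highest 1025), against 664 ± 521 in tumours titled 1501 to 1592 (n = 18, lowest 19, median 919.5, highest 1335). The difference of -312 had p = 0.0494 in a two-sided permutation test with 100000 resamples and an adjusted p of 0.198. Without tumour 1614 it was -297 (p = 0.0643, adjusted 0.257), and as a share of each tumour's shared calls on all chromosomes the means were 11.8% and 15.8% (p = 0.367, permutation tests). Within each block the tumours fell apart, since 7 of the 22 had 700 calls or more and 13 had 100 or fewer, against 11 and 6 of the 18. Tumours titled 1199 to 1293 had 440 ± 482 calls (n = 4: 962, 737, 34 and 27), against 492 ± 502 in the 40 later ones, a difference of -52.35 (permutation p = 0.781, adjusted 0.991). Without tumour 1201 or tumour 1293 the sign of this difference turned, to 82.98 or 85.3.

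**Figure D4:**
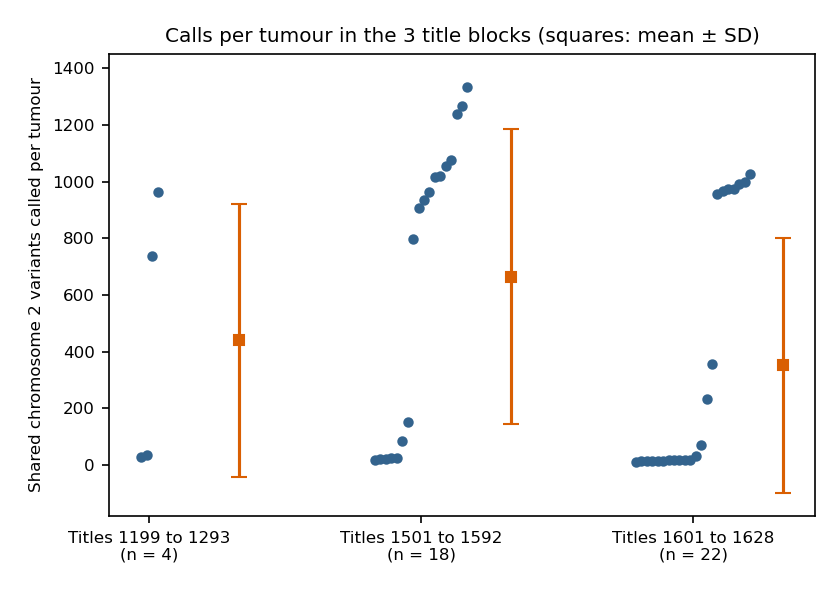
Number of the 1886 members called in each tumour (points) in the 3 title blocks (x axis), with the mean and SD (orange square and bar). The points form a low and a high cloud in each block, with highest values of 962, 1335 and 1025.

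Each variant was also tested alone. A two-sided Fisher exact test of carriers against non-carriers in all 12919 shared variants, with Benjamini-Hochberg adjustment, called 208 of the 1886 members (11.03%) as having fewer carriers among tumours titled 1601 to 1628 than among those titled 1501 to 1592, and 0 as having more. Over all shared variants 18.2% were called lower and 0.186% higher, so the share of members called lower was below that of the table. At an unadjusted p under 0.05, 326 members were lower and 0 higher. Linked members repeat one test, so these are not independent events.

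Most of the members called lay in segments 2, 3 and 6. All 61 variants of segment 2, 15 of 17 in segment 3 and 114 of 115 in segment 6 were called, with smallest adjusted p-values of 0.000693 in segments 2 and 3 and 0.00155 in segment 6 by Fisher's exact test. Segment 5 had 2 of 10 called. In the distal segments the calls were 1 of 71 in segment 7, 1 of 586 in segment 8, 0 of 47 in segment 9, 0 of 76 in segment 11 and 0 of 115 in segment 12. Segments 1, 4 and 10 had too few carriers for a call, with smallest adjusted p-values of 0.261, 0.430 and 0.137. Outside the segments the smallest adjusted p was 0.000122, for Olfr1173 p.Ile312Met, called in 0 of 22 tumours titled 1601 to 1628 and in 13 of 18 titled 1501 to 1592. Nat10 p.Gly17Asp, in an enzyme that acetylates RNA, was called in 0 and in 10 of them (adjusted p = 0.000693, Fisher's exact test).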

How the data were processed

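Tumour DNA was captured with a mouse exome kit and sequenced, per the labels' protocols, and per the submitters' processing notes GATK and the build mm10 were used. How reads were aligned and calls filtered, and what the kidneys served for, is not given in the sources used here. As deposited, the table of the authors has 25823 rows, of which 199 with several alternate alleles were left out, and its values are the percent of alternate reads per tumour, with no depth. The columns were matched to samples by title. Members, gene lists and segment settings were chosen with earlier results of these data known. Named genes were Samhd1, Cd40, the 25 genes changed in the most tumours, genes with truncating or splice members, listed genes with a protein change and genes at segment edges; further genes were chosen after their values were seen. Analyses used Python 3.11.15, pandas 2.3.3, numpy 2.4.6 and SciPy 1.17.1. On simulated carriers, the Fisher test of the title blocks recovered 177 of 200 changed variants of 12919 and called 2 unchanged ones. These carriers were drawn independently for each variant, with a large planted difference between the blocks. The real variants are linked, so the simulated counts give neither the power nor the error rate on these data. Replicates are separate mice, of which some may be related. Some items that the rule for named genes covers are not reported here.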

Additional observations from a re-analysis of the deposited data

Results flagged for a closer look

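Chromosome 2 variants called in 1 tumour alone were outside the comparisons above, and tumour 1200 held 1060 of the 1906. The next highest was tumour 1510 with 53. In tumour 1200 they lay mostly between 20 and 30 Mb (223 and 186 in the windows of 5 Mb from 20 and from 25 Mb) and between 115 and 125 Mb (153 and 393), and their median read share was 47.27%. The stretch from 115 Mb follows the segment at 110208680 to 114195979 that tumour 1200 shared with 1510, 1568 and 1571. What sets tumour 1200 apart was not tested.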

How the results depend on the processing

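The count of members ran from 1612 to 1841 under single-base variants alone, at least 3 carriers or a 20% minimum read share. Segments numbered 10 to 13, holding 1079 to 1357 members, under single-base variants alone, that read share, a gap of at most 2 Mb and Jaccard limits of 0.4 and 0.8. The Fisher count ran from 183 with single-base variants alone to 234 with variants called in at least 5 tumours. Leaving out tumour 1614 was chosen after seeing the data; it gave 1883 members, 12 segments and 207 Fisher calls, and turned the read-share difference between chromosome 2 and the others to 0.554. Requiring at least 100 member single-base calls also turned it, to 0.297. The read-share difference between titles 1601 to 1628 and titles 1501 to 1592, -4.00 points with an adjusted p of 0.302 (permutation test), passed the threshold with means in place of medians (-3.52, adjusted p = 0.00588), also without tumour 1614 (-0.679, adjusted p = 0.0300), and with medians was -0.116 (adjusted p = 0.991) without tumour 1614; over its alternatives the adjusted p ran from 0.00588 to 0.991. Leaving out 1 tumour titled 1199 to 1293 at a time moved the difference in calls per tumour from later tumours between -226.35 and 85.3. The labels give no pairing of tumours between title blocks, so the blocks were compared unpaired. Depth per call is unknown, so a missing call cannot be told from a lack of reads.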
